A study of Mus musculus with 23 samples.

Results

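The genes described here are the 10 CatSper subunit genes listed in the mouse count table, Catsper1, Catsper2, Catsper3, Catsper4, Catsperb, Catsperd, Catspere1, Catsperg1, Catsperg2 and Catsperz. They were chosen by name, as rows of the table of 27466 genes, and all 10 passed the filter on low counts that left 19255 genes for testing. RNA was sequenced from whole testes of CD-1 mice aged 6.5, 10.5 or 22.5 days postpartum (dpp) as well as 36.5 dpp, and from explants of 6.5 dpp testes grown for 4, 16 or 30 days (D4, D16 and D30). Most tissue was used fresh, while 3 libraries at 6.5 dpp and 1 at D30 came from testes taken through controlled slow freezing (CSF) and thawing. The in vivo groups held 4 libraries (6.5 dpp), 3 (10.5 dpp), 3 (22.5 dpp) and 2 (36.5 dpp), and 3 libraries represented D4, 2 D16 and 4 D30. All explants were kept in medium with serum replacement and intermittent retinol. Each cultured replicate pooled several explants, and their necrotic centre was cut away before RNA was taken. No gene was altered and no transgene was carried in any group. By total time since birth, D4 was set against 10.5 dpp, D16 against 22.5 dpp and D30 against 36.5 dpp.

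CatSper is the calcium channel of the sperm tail. Catsper1, Catsper2, Catsper3 and Catsper4 each encode a pore-forming subunit, and together they line the conducting pore. Catsperb, Catsperd, Catspere1, Catsperg1 and Catsperg2 encode auxiliary subunits with large extracellular parts, and Catsperz encodes a small cytoplasmic subunit that helps to keep the channel in ordered rows along the tail. The channel opens as the sperm interior becomes alkaline, and male mice that lack it are infertile because their sperm do not hyperactivate. Its subunits are made in male germ cells.

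Promoter sequence was available from RefSeq (GRCm38.p6) for 8 of the 10 members, in 10 windows of 300 bases, with none for Catsper1 and Catsperg2. The stretches printed here run from 120 bases before to 30 bases after the annotated start, 5′ to 3′ on the gene's strand. They set Catsper2, which changed least of the pore subunits between 22.5 and 36.5 dpp, and 3 auxiliary members that did not pass the test there (Catsperb, Catspere1 and Catsperg1) beside the late pore subunits Catsper3 and Catsper4. These genes were picked after their values and matches were seen. Capitals mark matches, on either strand, to TAACNG (the MYB family site), TGACG (the core of the CRE site), ACAAT (the SOX family site) or GTTGCC (the core of the RFX site). The Catsper2 stretch lies at chr2:121413763-121413912 on the minus strand, Catsperb at chr12:101404553-101404702 on the plus strand and Catspere1 at chr1:177808299-177808448 on the plus strand. The 2 windows of Catsperg1 give stretches at chr7:29210896-29211045 and chr7:29214004-29214153, both on the minus strand. Catsper3 lies at chr13:55784459-55784608 on the plus strand and Catsper4 at chr4:134227354-134227503 on the minus strand.
Catsper2: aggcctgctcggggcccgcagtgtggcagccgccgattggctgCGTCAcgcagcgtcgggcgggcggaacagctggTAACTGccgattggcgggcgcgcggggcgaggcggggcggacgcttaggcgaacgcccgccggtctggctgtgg
Catsperb: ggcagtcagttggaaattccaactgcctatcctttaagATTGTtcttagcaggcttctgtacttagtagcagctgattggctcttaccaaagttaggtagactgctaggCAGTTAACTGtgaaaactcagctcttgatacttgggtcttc
Catspere1: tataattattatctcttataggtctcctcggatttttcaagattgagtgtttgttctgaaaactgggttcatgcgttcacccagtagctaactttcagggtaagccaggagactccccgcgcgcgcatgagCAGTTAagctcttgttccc
Catsperg1: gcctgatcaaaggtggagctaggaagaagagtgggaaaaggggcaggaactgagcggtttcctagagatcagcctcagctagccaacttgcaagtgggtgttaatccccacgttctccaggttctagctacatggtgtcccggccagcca
Catsperg1: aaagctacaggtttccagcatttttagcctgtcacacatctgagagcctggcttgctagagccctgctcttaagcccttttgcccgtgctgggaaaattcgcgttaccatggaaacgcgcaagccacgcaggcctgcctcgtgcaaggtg
Catsper3: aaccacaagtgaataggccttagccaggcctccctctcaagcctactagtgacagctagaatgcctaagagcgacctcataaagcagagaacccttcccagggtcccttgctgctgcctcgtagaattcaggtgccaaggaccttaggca
Catsper4: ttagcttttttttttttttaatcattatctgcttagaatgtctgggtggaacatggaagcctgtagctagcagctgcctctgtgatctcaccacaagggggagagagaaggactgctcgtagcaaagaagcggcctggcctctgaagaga
The TAACNG letters were found in 4 of the 10 member windows, those of Catsper2, Catsperb and Catspere1 and 1 of the 2 windows of Catsperd, and in 23.3% of 32851 promoter windows of the same length. In Catsperb 2 matches overlapped, which gives the run of capitals near its start. TGACG stood in 2 of the 10 windows (Catsper2 and Catsperd) and in 20.8% of all windows, ACAAT in 1 (Catsperb) and in 31% of all, and GTTGCC in none and in 12.5% of all. The windows of Catsper3, Catsper4, Catsperg1 and Catsperz held no match to any of the 4 motifs. These are matches of letters in short windows, and binding was not measured.

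The 21 libraries analysed held between 28351546 and 69029328 counts, so that 3 counts, taken here as the limit of detection, correspond to 0.0435 to 0.106 CPM (counts divided by the library total and scaled to 1000000). The library labelled 6.5 dpp fresh replicate 1 was left out, because its expression resembled that of the cultures. In it all 10 members stood above every other 6.5 dpp library, with a summed level of 862 CPM against 8.64 to 10.2 CPM. The share of all genes that did so was not counted, so this is not shown to be particular to the members. The columns for 6.5 dpp fresh replicates 2 and 3 are identical and were counted as 1 library. Scaling matters at 36.5 dpp, where the normalization factors (trimmed mean of M values, TMM) were 0.674 and 0.661, against 0.979 to 1.06 at D30. With library size alone the median log2 change over all genes moved from -0.13 to -0.63 for 36.5 against 22.5 dpp and from -0.03 to 0.60 for D30 against 36.5 dpp. The share of calls that were higher moved with it, from 45.9% to 27.9% in the former comparison and from 48% to 65.8% in the latter. A gene was called where edgeR's quasi-likelihood test gave a Benjamini-Hochberg adjusted p under 0.05 over all 19255 genes. In whole tissue, fewer cells of a type and less RNA per cell cannot be told apart. Separate animals or cultures for each library are not stated for every group, so p-values measure the spread between these libraries.

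At 6.5 dpp, 10.5 dpp and D4 the members were barely expressed. The summed level of the 10 genes was 9.36 ± 0.680 CPM (SD, n = 4) at 6.5 dpp, 13.1 ± 0.567 (n = 3) at 10.5 dpp and 17.1 ± 1.12 (n = 3) at D4. Catsper2 took the largest part, at 3.85 to 5.33 CPM at 6.5 dpp, 5.95 to 6.59 at 10.5 dpp and 7.60 to 8.61 at D4. Catsperg1 followed with 0.847 to 5.03 CPM and Catsperd with 1.30 to 2.32 CPM over these 10 libraries. Catsper1 had at most 2 counts in any of them and Catsper4 at most 4.

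Between 6.5 and 10.5 dpp no member was called by edgeR, against 1.14% of all genes, and none had an unadjusted p under 0.05. DESeq2 also called no member, while it called 281 of 18124 genes higher and 366 lower. In the explants at D4, 2 members were called higher than at 6.5 dpp, against 10.8% of all genes. Catsperg2 stood at 1.32, 0.839 and 1.01 CPM in the 3 D4 libraries and at 0.0705 to 0.478 CPM in the 4 libraries at 6.5 dpp, so the groups did not overlap (log2 fold change 2.21, SE 0.51, adjusted p = 0.0044). Catsperg1 stood at 4.48 to 5.03 CPM at D4 and at 0.847 to 3.08 CPM at 6.5 dpp (1.16, SE 0.39, adjusted p = 0.042). Both calls were lost with fresh libraries only (adjusted p = 0.12 and 0.42, with ranges of 0.000128 to 0.133 and 0.0241 to 0.423 over all alternatives). The call for Catsperg1 was also lost on leaving out any of 11 single libraries. The pair share sequence: 41% of the 50-base words of the longest Catsperg1 transcript also occur in other genes, mostly Catsperg2. Reads of 50 bases from such stretches cannot be assigned between the 2 genes. Whether they were dropped or counted is not stated. Against 10.5 dpp, no member was called at D4 by edgeR, against 8.1% of all genes in either direction. Catsperg2, the member with an unadjusted p under 0.05 there, was the 1 member that DESeq2 called.

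**Figure D1:**
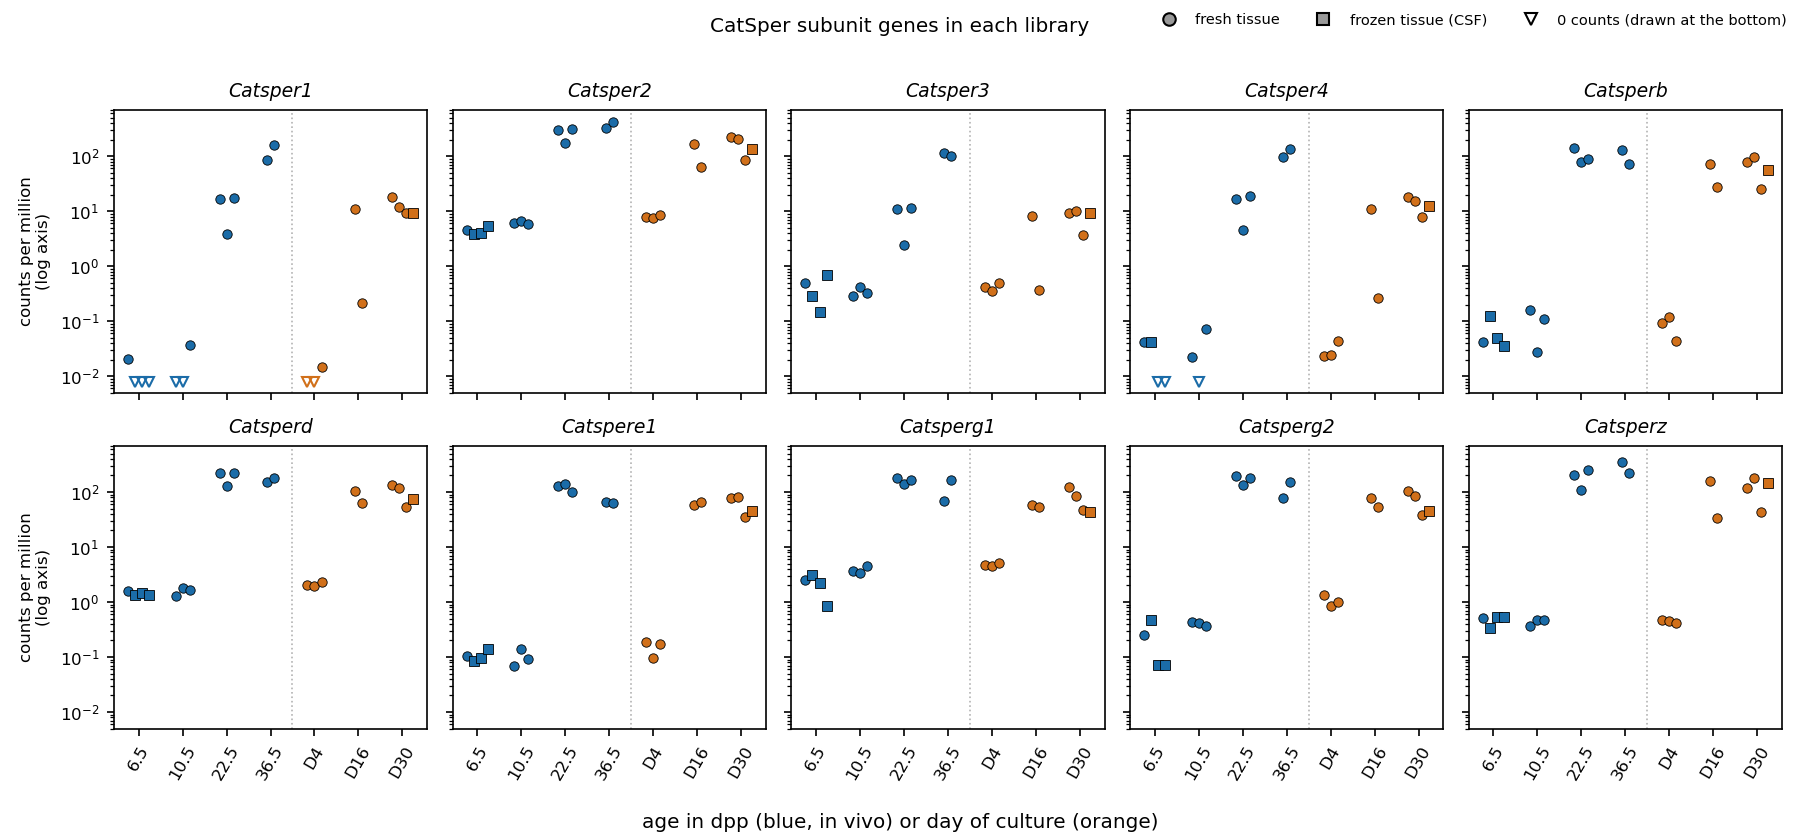
Level of each CatSper subunit gene in each of the 21 libraries, in CPM on a log axis, by age in vivo (blue) and day of culture (orange). Squares are frozen tissue and open triangles are libraries with 0 counts. Catsper1, Catsper3 and Catsper4 climb in vivo from 2.48 to 18.9 CPM at 22.5 dpp to 84.1 to 158 CPM at 36.5 dpp and stay between 3.65 and 18.4 CPM at D30, whereas Catsperb, Catsperd, Catsperg1, Catsperg2 and Catsperz overlap between 22.5 and 36.5 dpp.

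All 10 members rose in vivo from 10.5 to 22.5 dpp, and 33.6% of all genes were called higher there. The paper places early (lepto-zygotene) spermatocytes at 10.5 dpp and round spermatids at 22.5 dpp. The summed level reached 1421, 917 and 1376 CPM in the 3 libraries at 22.5 dpp, all far above the 12.5 to 13.6 CPM at 10.5 dpp. The median log2 change of the members was 8.89, or 8.14 with Catsper1 set to the bound that 3 counts per library allow, against 0.06 over all genes. All 10 also passed the stricter thresholds of the study, a log2 change of 2 or more in either direction with an adjusted p no higher than 0.001, which 15.1% of all genes passed as higher.

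The members reached very different levels at 22.5 dpp. Among the auxiliary subunits Catsperd stood at 222, 130 and 222 CPM, against 1.30 to 1.84 CPM at 10.5 dpp (log2 fold change 7.23, SE 0.42, edgeR adjusted p = 5.94e-10). Catspere1 stood at 129, 139 and 99.9 CPM, from 0.0673 to 0.139 CPM (10.56, SE 0.45, adjusted p = 9.41e-11). Catsperz, the cytoplasmic subunit, stood at 206, 108 and 257 CPM, from 0.359 to 0.473 CPM (9.09, SE 0.72, adjusted p = 1.09e-08). All 3 had left their earlier range entirely. Of the pore subunits only Catsper2 was at a comparable level, with 297, 176 and 313 CPM (5.71, SE 0.45, adjusted p = 1e-08). Catsper1 stood at 16.7, 3.77 and 17.7 CPM, from a range of 0 to 0.0364 CPM. Catsper3 stood at 10.8, 2.48 and 11.7 CPM (4.92, SE 0.87, adjusted p = 0.000109) and Catsper4 at 16.5, 4.61 and 18.9 CPM (8.74, SE 1.18, adjusted p = 6.48e-06).

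Replicate 2 was the lowest of the 22.5 dpp libraries for all of the pore subunits, for Catsperz and for every auxiliary subunit except Catspere1. The summed CPM of 5 round spermatid markers (Acrv1, Spaca1, Tssk1, Acr and Sun5) was also lowest there, at 112 against 280 and 277 in replicates 1 and 3, and that of 5 spermatocyte markers (Sycp3, Piwil1, Hspa2, Ldhc and Pou5f2) was 4721 against 6961 and 7229. Catspere1, in contrast, was highest in that library. The part of cell composition in these differences was not tested.

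From 22.5 to 36.5 dpp, when spermatids elongate, Catsper1, Catsper3 and Catsper4 rose most, and neither the auxiliary subunits nor Catsperz passed the test. Catsper2 passed it narrowly, with an estimate near that of Catsperz (1.00, SE 0.40, against 1.07, SE 0.54). A difference between pore and other subunits was not tested. Of the 10 members 4 were called higher, against 23.3% of all genes, and none lower, against 27.5%. Catsper3 was the 1 member past the stricter thresholds, against 8.87% of all genes. Catsper1 stood at 84.1 and 158 CPM in the 2 libraries at 36.5 dpp, above all 3 at 22.5 dpp (log2 fold change 3.72, SE 0.87, edgeR adjusted p = 0.0019). Catsper3 stood at 116 and 98.8 CPM (4.16, SE 0.82, adjusted p = 0.000512), and Catsper4 at 96.9 and 135 CPM (3.59, SE 0.83, adjusted p = 0.0018). In mean CPM these 3 genes were 9.52, 12.9 and 8.68 times as high at 36.5 as at 22.5 dpp. Leaving out any single library kept all 3 calls, and so did library size alone. With the library labelled 6.5 dpp fresh replicate 1 kept, the calls for Catsper1 (adjusted p = 0.149) and Catsper4 (0.139) were lost, and over all alternatives their adjusted p ran from 2.55e-05 to 0.149 and from 2.58e-05 to 0.139.

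The fourth pore subunit moved less. Catsper2 stood at 325 and 420 CPM, against 297, 176 and 313 CPM (1.00, SE 0.40, edgeR adjusted p = 0.046). The groups did not overlap, but the call was lost on leaving out any of 13 single libraries, among them 22.5 dpp replicate 2 (adjusted p = 0.17) and 36.5 dpp replicate 2 (0.22), and with library size alone (0.24). The adjusted p ran from 0.0171 to 0.571 over all alternatives.

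The 5 auxiliary subunits, Catsperb, Catsperd, Catspere1, Catsperg1 and Catsperg2, gave log2 changes from -0.41 to 0.47, with adjusted p between 0.285 and 0.954. Catsperb stood at 131 and 73.6 CPM, against 144, 78.4 and 88.6 CPM, and Catsperd at 150 and 179 CPM against 222, 130 and 222 CPM, so both overlapped. Catspere1 was the exception to overlap, at 65.3 and 64.0 CPM, below all 3 libraries at 22.5 dpp (log2 fold change -0.41, SE 0.32, adjusted p = 0.285), and with library size alone it was called lower, as were 43.5% of all genes (-0.93, adjusted p = 0.0141, the lowest over all alternatives, of which the highest was 0.887). With that scaling the signs of Catsperb, Catsperd and Catsperg1 turned negative as well, without a call. Catsperg1 had 67.4 and 166 CPM and Catsperg2 78.4 and 151 CPM, a wider spread between the 2 libraries than any other auxiliary subunit. Catsperz stood at 346 and 226 CPM against 108 to 257 CPM (1.07, SE 0.54, adjusted p = 0.109). Its groups overlapped in CPM but not on the TMM scale. The round spermatid markers summed to 980 and 1140 CPM at 36.5 dpp, and 6 markers of elongated spermatids (Prm1, Prm2, Tnp1, Tnp2, Akap4 and Odf1) to 25690 and 19910 CPM, against 26.2 to 168 CPM at 22.5 dpp. Spermatocyte markers summed to 8227 and 6414 CPM, a range that overlapped that at 22.5 dpp.

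In culture all 10 members were called higher at D16 than at D4, against 18.4% of all genes, with a median log2 change of 6.68 (6.24 with Catsper1 and Catsper4 set to their bound) against 0.03 over all genes. The 2 D16 libraries differed widely, with a summed level of 724 CPM in replicate 1 and 361 CPM in replicate 2. Catspere1 stood at 57.8 and 64.97 CPM and Catsperg1 at 57.0 and 52.9 CPM. Catsperb (71.1 and 27.7 CPM), Catsperd (106 and 63.8 CPM), Catsperg2 (76.7 and 53.8 CPM), Catsper2 (164 and 63.6 CPM) and Catsperz (162 and 33.5 CPM) were lower in replicate 2. The other 3 pore subunits were lower still in that library. Catsper1 stood at 10.8 and 0.219 CPM, Catsper3 at 8.04 and 0.372 CPM and Catsper4 at 10.9 and 0.262 CPM. In replicate 2 Catsper3 lay within its D4 range of 0.360 to 0.492 CPM. Without replicate 1, a fit with 1 library at D16, the calls for Catsper1, Catsper3 and Catsper4 were lost. The log2 change of Catsper3 was then -0.17. Round spermatid markers summed to 177 CPM in replicate 1 and 36.0 CPM in replicate 2, and elongated spermatid markers to 117 and 7.08 CPM. Their part in the difference was not tested.

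From D16 to D30 no member was called by edgeR, against 1.79% of all genes, and none had an unadjusted p under 0.05. DESeq2 called no member either, while it called 557 of 19244 genes higher and 162 lower. The D30 range overlapped that at D16 for all 10 members. Catsper1 stood at 18.4, 11.9, 9.09 and 9.44 CPM at D30 (log2 fold change 1.18, SE 0.84, adjusted p = 0.706) and Catspere1 at 78.5, 82.7, 34.5 and 45.0 CPM (0.02, SE 0.30, adjusted p = 0.995). All 10 log2 changes were above 0, although that of Catspere1 turned to -0.03 with library size alone. The absence of a call did not hold for Catsper1, Catsper3 and Catsper4 without D16 replicate 1, a fit with 1 library at D16. The share of all genes called in that fit is not given.

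At D16 the members stood below the 22.5 dpp testis, with log2 changes from -1.13 to -1.72, and 5 of 10 were called lower, against 11.8% of all genes. Those called were Catsper2 (-1.37, SE 0.43, edgeR adjusted p = 0.0266) and the auxiliary genes Catsperd, Catspere1, Catsperg1 and Catsperg2 (-1.16 to -1.72, adjusted p between 0.015 and 0.029). Catsperg1 was the farthest, at 57.0 and 52.9 CPM against 180, 137 and 166 CPM. In 6 members, these 5 and Catsperb, the groups did not overlap. The share of all genes that separate in groups this small was not counted, so this count has no background beside it. The calls depended on single libraries, and the share of all genes called in those fits is not given. None was left without 22.5 dpp replicate 1, and 2 were left without 22.5 dpp replicate 3. Calls were lost without D16 replicate 2 and gained without D16 replicate 1, in fits with 1 library at D16. With replicate 2 of both stages left out, an alternative chosen after the values were seen, none was called. The change from D4 to D16 was then compared with that from 10.5 to 22.5 dpp. The difference was called as lower for 4 members, against 4.36% of all genes: Catsper2 (-1.82, SE 0.56, adjusted p = 0.0488), Catsperd (-1.84, SE 0.50, 0.028), Catsperg1 (-2.12, SE 0.63, 0.0415) and Catsperg2 (-3.05, SE 0.71, 0.0144). None of these 4 was called without D16 replicate 2. The call was lost on leaving out any of 16 single libraries for Catsper2, 11 for Catsperg1 and 7 for Catsperd, and with library size alone for Catsper2 (adjusted p = 0.0533, range 0.0124 to 0.635 over all alternatives) and Catsperg1 (0.056, range 0.000914 to 0.615).

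At D30 the estimates of all 10 members were below 36.5 dpp, and all 10 were called lower, against 35% of all genes. The summed level was 911, 888, 347 and 577 CPM at D30, against 1462 and 1671 CPM. The median log2 change was -1.61, against -0.03 over all genes. With library size alone all 10 stayed below 0, with a median of -0.99 against 0.60 over all genes, and 6 were called lower, against 23.8% of all genes: the 4 pore subunits, Catsperd and Catsperz.

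The 3 late pore subunits were lowest. Catsper3 stood at 9.22, 10.1, 3.65 and 9.39 CPM at D30, against 116 and 98.8 CPM (log2 fold change -4.36, SE 0.74, edgeR adjusted p = 6.71e-05), which is 7.51% of the in vivo mean. Catsper1 stood at 10.1% of it (-3.94, SE 0.78, adjusted p = 0.000287). Catsper4, at 17.7, 15.0, 7.81 and 12.5 CPM, stood at 11.5% (-3.75, SE 0.75, adjusted p = 0.000309). These were also the 3 members past the stricter thresholds of the study, against 13.6% of all genes. In none of the 3 did the D30 libraries come near the 36.5 dpp range. Catsper2, at 228, 204, 85.2 and 135 CPM, stood at 43.7% (-1.82, SE 0.37, adjusted p = 0.000368).

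Catsperz stood close to Catsper2, at 42.2% of its mean at 36.5 dpp (-1.86, SE 0.50, edgeR adjusted p = 0.00327). The auxiliary subunits lay closer to the testis, with Catsperd at 58.1% (-1.40, SE 0.32, 0.000977). Catsperb, Catsperg1 and Catsperg2 stood at 59.2% to 64.2%, with log2 changes from -1.27 to -1.38 and adjusted p between 0.0088 and 0.0207. In CPM the ranges of all 3 at D30 and 36.5 dpp overlapped, while on the TMM scale only those of Catsperg1 did. The calls were lost with library size alone. That for Catsperb was also lost without 36.5 dpp replicate 1 (adjusted p = 0.23), and those for Catsperg1 (0.43) and Catsperg2 (0.19) without 36.5 dpp replicate 2. Over all alternatives the adjusted p ran from 0.00692 to 0.556 for Catsperb, from 0.00126 to 0.432 for Catsperg1 and from 0.00129 to 0.507 for Catsperg2. Catspere1 was nearest, at 93.0% in CPM (-0.72, SE 0.29, adjusted p = 0.0347). Its ranges overlapped in CPM but not on the TMM scale, and library size alone gave -0.105 without a call (adjusted p = 0.749). The call was also lost without either library at 36.5 dpp, D30 fresh replicate 3 or the D30 CSF library. Over all alternatives its adjusted p ran from 0.00522 to 0.749.

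**Figure D2:**
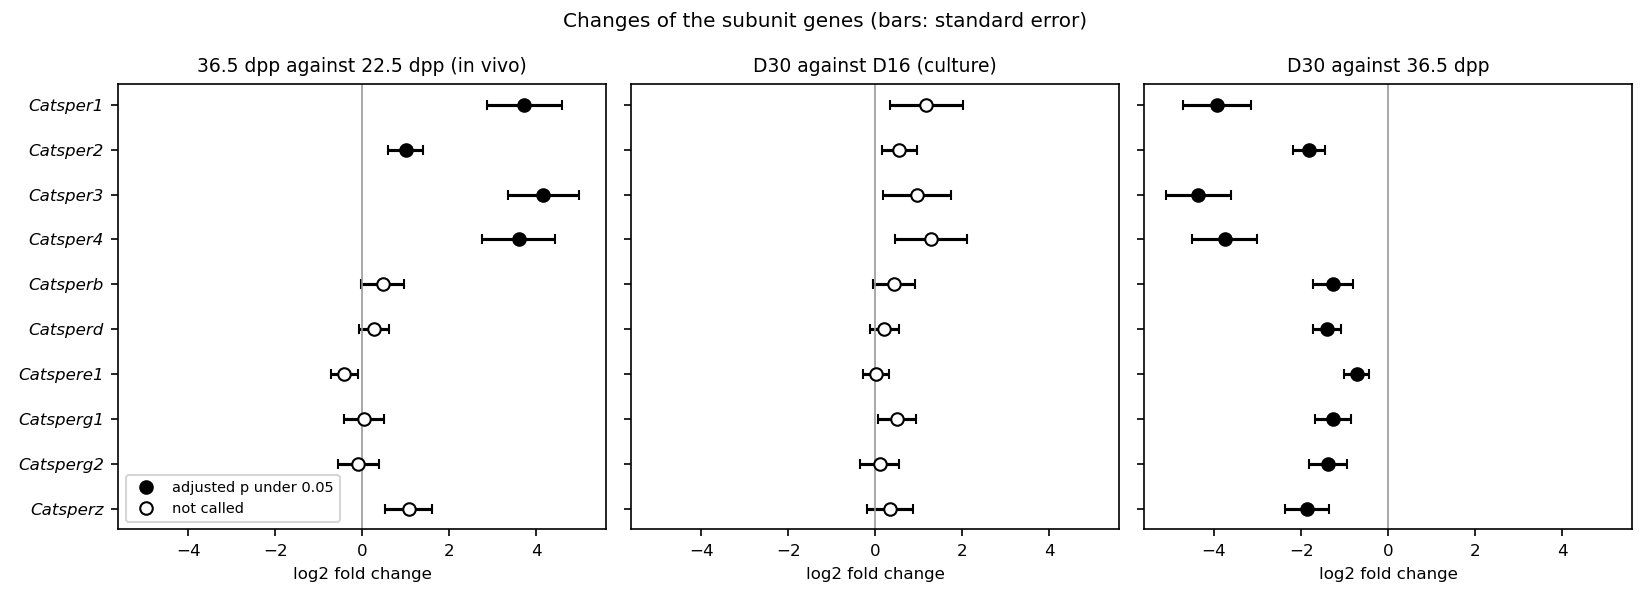
Log2 fold change of each CatSper subunit gene (points) with its standard error (bars) from the edgeR fit, for 36.5 against 22.5 dpp, D30 against D16 and D30 against 36.5 dpp. Filled points had an adjusted p under 0.05. Catsper1, Catsper3 and Catsper4 lie between 3.59 and 4.16 in the left panel and between -4.36 and -3.75 in the right panel, and no point is filled in the middle panel.

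The change from D16 to D30 was also compared with that from 22.5 to 36.5 dpp. The difference was called for 1 member, Catsper3 (-3.19, SE 1.06, edgeR adjusted p = 0.0417), against 8.63% of all genes called lower. Catsper1 (-2.55, SE 1.13, adjusted p = 0.116) and Catsper4 (-2.31, SE 1.09, 0.137) gave estimates of similar size that did not pass. Catsper2 gave -0.44 (adjusted p = 0.595) and Catsperz -0.73 (0.507). For the 5 auxiliary subunits they ranged from -0.06 to 0.46, and with library size alone those of Catsperb and Catsperd turned from negative to positive. The call for Catsper3 was lost on leaving out any of 13 single libraries. Its sign turned without D16 replicate 1 (0.34), and its estimate was -4.13 without D16 replicate 2. Both of these fits leave 1 library at D16. At D30 round spermatid markers summed to 104 to 262 CPM and elongated spermatid markers to 459 to 2128 CPM, below both libraries at 36.5 dpp. Sertoli cell markers (Sox9, Amh, Gata4, Wt1 and Clu) summed to 4994 to 8386 CPM at D30 and 632 to 843 CPM at 36.5 dpp. The part of cell composition in the members' differences was not tested.

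Ratios of members within a library do not depend on how libraries are scaled. Catsper1 reached 0.0561, 0.0215 and 0.0566 of the Catsper2 count at 22.5 dpp and 0.259 and 0.377 at 36.5 dpp, whereas at D30 it stood at 0.0809, 0.0585, 0.107 and 0.0699. The D30 libraries thus lay above those at 22.5 dpp, the lowest of them only just, and below those at 36.5 dpp. At D16 the ratio was 0.0657 in replicate 1, within the D30 range, and 0.0034 in replicate 2. With counts divided by the exon length of each gene, Catsper1, Catsper3 and Catsper4 together made up 2.08% to 5.41% of the members at 22.5 dpp, 26.6% and 33.1% at 36.5 dpp, 5.94% and 0.477% at D16 and 6.26% to 9.54% at D30. These 3 genes were grouped after their values were seen, so the shares carry no test.

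**Figure D3:**
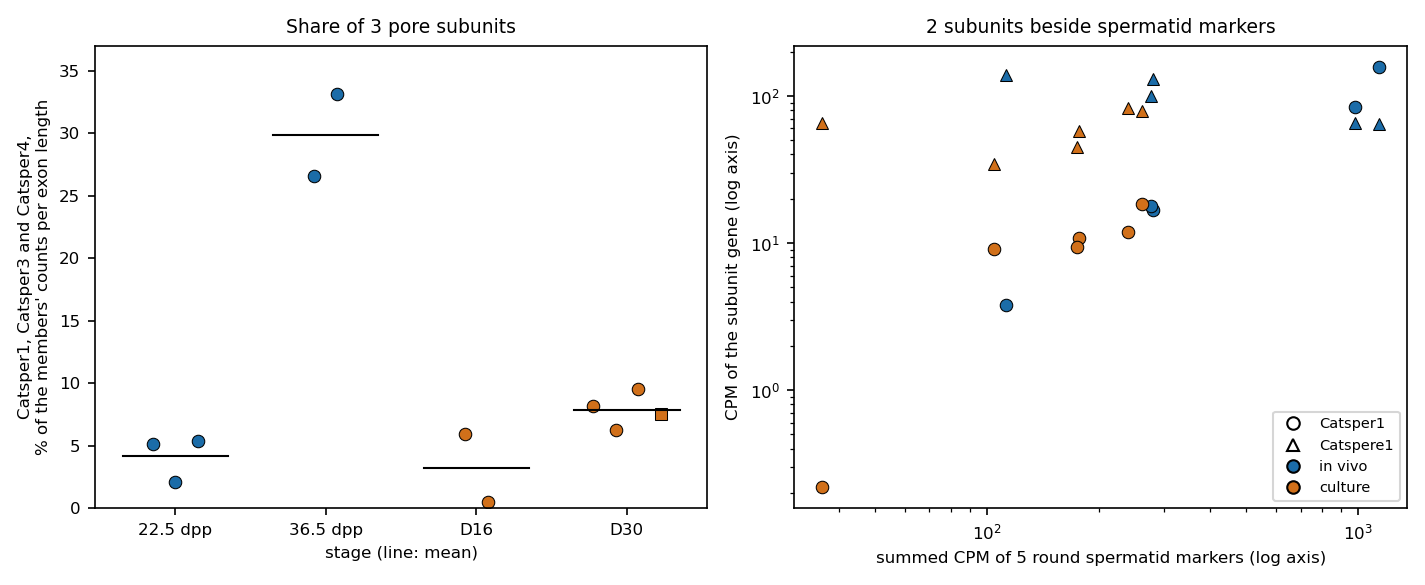
Left, share of the CatSper members' counts per exon length held by Catsper1, Catsper3 and Catsper4 in each library (points, with the stage mean as a line), in percent. It lies between 26.6% and 33.1% at 36.5 dpp and reaches at most 9.54% at 22.5 dpp, D16 and D30. Right, CPM of Catsper1 (circles) and Catspere1 (triangles) against the summed CPM of 5 round spermatid markers, both on log axes, in the 11 libraries of those stages. Catsper1 runs from 0.219 to 158 CPM and Catspere1 from 34.5 to 139 CPM.

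The order of the members by level per exon length changed accordingly. At 22.5 dpp Catsperz was highest at 151 ± 60.0 CPM per kb (SD, n = 3), followed by Catsper2 at 70.9 ± 20.3, Catsperd at 53.3 ± 14.8 and Catspere1 at 41.7 ± 6.96, with Catsperd overlapping both Catsper2 and Catspere1. Catsperg2, Catsperg1 and Catsperb formed an overlapping middle group at 24.5, 22.9 and 18.7 CPM per kb. Catsper4, Catsper3 and Catsper1 came last at 6.35, 6.11 and 5.82 CPM per kb, with ranges that overlapped each other and lay below those of all other members. At 36.5 dpp Catsperz (227 ± 67.2, n = 2) and Catsper2 (101 ± 18.1) still led, but Catsper3 (79.1 ± 9.21), Catsper1 (55.4 ± 24.0) and Catsper4 (55.2 ± 12.8) came next. Catsper1 and Catsper4 overlapped each other and also Catsperd (45.8 ± 5.6). With the longest transcript as the length, Catsper1 ranked behind Catsper4 and Catsperd. At D30 the order of 22.5 dpp held at both ends: Catsperz led at 95.8 ± 45.9 CPM per kb (n = 4) and the same 3 pore subunits had the lowest means, at 5.58 to 6.32, though their ranges overlapped those of Catsperb, Catsperg1 and Catsperg2. Part of the Catsperz transcript (47.2% of its 50-base words) is also annotated in other genes, mostly Kcnk4. For Catsperg1 and Catsperg2 this part was 41% and 40.5%, mostly in each other. It was 25.1% for Catspere1 (mostly Catspere2) and 14.6% for Catsperb (mostly Gm18795). These levels are less certain than those of the pore subunits, which share no such word with another gene. Catsper2 overlaps Pdia3 and Catsperd overlaps Gm33461 in the annotation. The strand setting of the counting is not given in the sources used here, so reads from the overlaps may come from either gene.

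The D30 library grown from frozen tissue stood within the range of the 3 fresh D30 libraries for 9 of the 10 members and below it for Catsperg1, at 43.5 CPM against 46.9 to 124 CPM. The count was the same on the TMM scale. The share of all genes within the fresh range was not counted, so this count has no background beside it. With a single frozen library no test was possible.

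Of the 6 other genes of the channel complex, all rose from 10.5 to 22.5 dpp, against 33.6% of all genes, and all were called lower at D30 than at 36.5 dpp, against 35%. Efcab9, the calcium-binding partner of CATSPERZ, stood at 25.5, 10.2 and 27.3 CPM at 22.5 dpp and 141 and 130 CPM at 36.5 dpp (log2 fold change 3.16, SE 0.61, edgeR adjusted p = 0.000433). Its level at D30 was 27.9, 28.2, 12.7 and 27.3 CPM (-3.12, SE 0.55, adjusted p = 9.96e-05). Tmem249 and Tmem262, which encode small membrane components, rose by 3.22 and 3.95 on the log2 scale from 22.5 to 36.5 dpp (adjusted p = 0.00348 and 0.00123). C2cd6 and Slco6c1 rose by 1.15 and 1.23 (0.0344 and 0.0498), and Catspere2 gave -0.29 (0.501). The median of the 6 was 2.20 for that step against -0.13 over all genes, and with library size alone 3 were called higher and Catspere2 lower. From D16 to D30 none of the 6 was called.

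Of 11 genes for sperm ion and pH handling, 5 were called higher and 1 lower at 36.5 than at 22.5 dpp, against 23.3% and 27.5% of all genes. At D30, 8 were called lower and 1 higher than at 36.5 dpp, against 35% and 32.4% of all genes. Kcnu1 and Lrrc52 encode the pore and the auxiliary subunit of the sperm potassium channel. Kcnu1 stood at 23.8, 10.0 and 23.1 CPM at 22.5 dpp, 73.6 and 104.6 CPM at 36.5 dpp and 10.3 to 22.0 CPM at D30 (log2 fold change for D30 against 36.5 dpp -3.11, SE 0.53, edgeR adjusted p = 6.69e-05). Lrrc52 had 3.78, 0.417 and 3.67 CPM, then 32.7 and 37.9 CPM in vivo, and 1.28 to 2.75 CPM at D30 (-4.75, SE 0.84, adjusted p = 0.0001). Atp1a4, the sodium pump of sperm, rose most from 22.5 to 36.5 dpp in this list (5.44, SE 0.95, adjusted p = 0.000199), to 637 and 900 CPM. Adcy10, the soluble adenylyl cyclase, rose by 2.27 (adjusted p = 0.000349). Slc9c1, the sperm sodium-proton exchanger, gave 0.78 (adjusted p = 0.221) for that step and -1.83 (0.00276) for D30 against 36.5 dpp. Hvcn1, a proton channel gene also known from immune cells, moved the other way, at 0.475 and 0.437 CPM at 36.5 dpp and 1.96 to 3.10 CPM at D30 (1.67, SE 0.32, adjusted p = 0.000193).

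**Figure D4:**
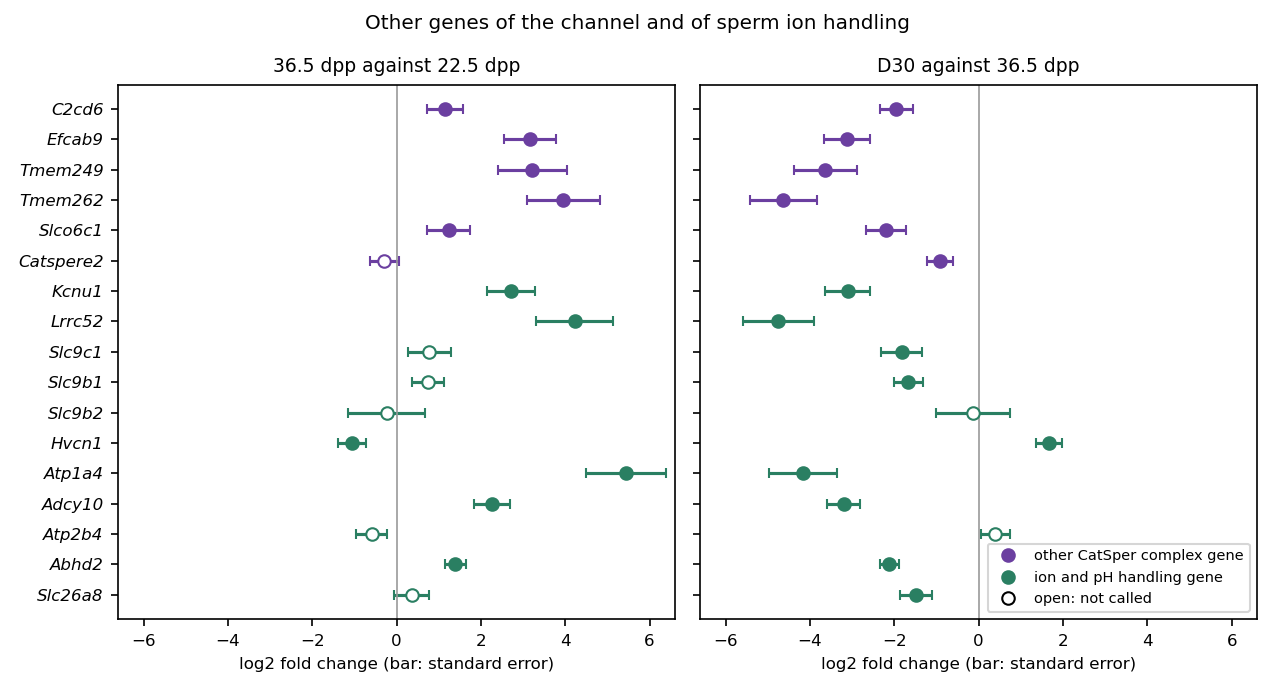
Log2 fold change with its standard error of 6 other CatSper complex genes (purple) and 11 genes of sperm ion and pH handling (green), for 36.5 against 22.5 dpp and for D30 against 36.5 dpp. Filled points had an adjusted p under 0.05. In the right panel all 6 complex genes lie below 0, from -4.63 to -0.92, and Hvcn1 lies above 0 at 1.67.

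Over all 21 libraries the 5 genes outside the list whose log2 CPM followed the mean standardized profile of the members most closely were Prss40, Tsga10ip, Cfap53, 1700003E16Rik and Tcp11, with Pearson r from 0.997 to 0.998. All points share their libraries and the step between early and late stages, which by itself gives high values. Ranked by Spearman correlation, none of these 5 was among the top 5. Within the 11 libraries of 22.5 dpp, 36.5 dpp, D16 and D30, the pair of members closest to each other was Catsper1 and Catsper4 (r = 0.997), and the pair farthest apart was Catsper1 and Catspere1 (r = 0.281).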

How the data were processed

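Per the labels and the study's methods, the authors sequenced single reads of 50 bases, aligned them to GRCm38 with STAR 2.7.3a and counted them per gene with HTSeq 0.12.4. The deposited values are raw counts per gene for 23 libraries. The strand setting of the counting is not given in the sources used here. No column belonged to another series. Genes without a symbol held 0.0207% of counts. Fresh and frozen libraries of a stage formed 1 group.

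CPM were computed per column. Counts of 21 libraries in 7 stages were fitted together in edgeR 4.0.16 (R 4.3.3, filterByExpr, TMM, quasi-likelihood F test), with Benjamini-Hochberg adjustment over 19255 genes. The test was checked on simulated data. Differences between the culture and in vivo steps were contrasts of the same fit. DESeq2 1.42.0, other scalings, filters, samples and thresholds, a replicate block and leaving out each library were alternatives. The 10 members were named in every comparison, and other genes were named from lists of the complex and of ion and pH handling. Members, lists and tests were chosen with earlier results of these data known.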

Additional observations from a re-analysis of the deposited data

Results flagged for a closer look

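In 4 of 20 groups of 4 libraries, 1 library stood apart from the other 3 by Dixon's criterion, which chance meets in about 1 of 20 groups. Catsper1 was at 0.0209 CPM in 6.5 dpp fresh replicate 2, which is 1 count, and at 0 in the frozen libraries. Catsperb was high at 0.125 CPM and Catsperz low at 0.333 CPM in 6.5 dpp CSF replicate 1. Catsper3 was low at 3.65 CPM in D30 fresh replicate 3, the D30 library with the lowest sums of round spermatid (104 CPM) and spermatocyte (1452 CPM) markers. Their part in the value was not tested.

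The step from D4 to D16 differed from that between 10.5 and 22.5 dpp by edgeR's test of the difference for Catsper2 (-1.82 on the log2 scale), Catsperd (-1.84), Catsperg1 (-2.12) and Catsperg2 (-3.05). The step from D16 to D30 differed from that between 22.5 and 36.5 dpp for Catsper3 (-3.19). Leaving out 1 library ended the call in 16 of 21 cases for Catsper2, 7 for Catsperd, 11 for Catsperg1, 1 for Catsperg2 and 13 for Catsper3.

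In the library labelled 6.5 dpp fresh replicate 1, which entered no comparison, the members summed to 862 CPM, above the 8.64 to 10.2 CPM of the other libraries at 6.5 dpp.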

How the results depend on the processing

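With the library labelled 6.5 dpp fresh replicate 1 kept, 1 member was called for 36.5 against 22.5 dpp, 1 for D16 against D4 and 1 for D30 against 36.5 dpp, and 0 for D4 against 6.5 dpp, D16 against 22.5 dpp and both differences between steps, while for D4 against 6.5 dpp Catsperg1 turned to -2.73 and Catsperg2 to -4.78 on the log2 scale. With the thresholds of the study, 1 member was called for 36.5 against 22.5 dpp, 3 for D30 against 36.5 dpp and 0 for D4 against 6.5 dpp, D16 against 22.5 dpp and both differences between steps. With fresh libraries only, 0 were called for D4 against 6.5 dpp and 0 for the spermatid step. With only the groups compared, 3 were called for D4 against 10.5 dpp, 3 for D16 against 22.5 dpp and 0 for the spermatid step, and DESeq2 called 1 for D4 against 10.5 dpp. With library size alone, 6 were called for D30 against 36.5 dpp and 2 for the meiotic step. Without replicate 2 of D16 and 22.5 dpp, chosen after seeing the data, 0 were called for D16 against 22.5 dpp, 0 for the meiotic step and 3 for the spermatid step. On the TMM scale the summed level was 8.59 CPM at 6.5 dpp, 11.6 at 10.5 dpp and 2348 at 36.5 dpp. The cause of these changes was not tested. For most of these fits, and for those below, the share of all genes called is not given. A general shift in calls therefore cannot be told from a shift of the members.

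Leaving out 1 library gave 3 to 4 members called for 36.5 against 22.5 dpp, 1 to 3 for D4 against 6.5 dpp, 7 to 10 for D16 against D4, 0 to 3 for D30 against D16, 0 to 9 for D16 against 22.5 dpp, 7 to 10 for D30 against 36.5 dpp, 0 to 6 for the meiotic step and 0 to 3 for the spermatid step. Without D16 replicate 1, Catsper3 turned to -0.17 for D16 against D4 (up to 4.30 without D16 replicate 2) and to 0.34 for the spermatid step (down to -4.13 without D16 replicate 2). Summed in vivo levels ran from 9.09 to 9.60 CPM (6.5 dpp), 12.9 to 13.4 CPM (10.5 dpp), 1146 to 1398 CPM (22.5 dpp) and 1462 to 1671 CPM (36.5 dpp), and those of the cultures from 16.6 to 17.7 CPM (D4), 361 to 724 CPM (D16) and 604 to 792 CPM (D30).

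Replicate numbers did not pair the libraries: deviations of same-numbered libraries had a median correlation of 0.009 over 64 pairs, against -0.006 over 123 other pairs. With the replicate block, 0 members were called for the spermatid step, 3 for 36.5 against 22.5 dpp, 6 for D16 against 22.5 dpp, 9 for D30 against 36.5 dpp and 4 for the meiotic step. Of the 46 calls of single members, 46 held with DESeq2 and 39 with library size alone.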
